A study of Mus musculus with 18 samples.

Results

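The matrix metalloproteases (MMPs), the ADAMTS proteases and the tissue inhibitors of metalloproteases (TIMPs) are the secreted and surface-bound enzymes that cut extracellular matrix, and the small proteins that block them. Members were taken by gene symbol alone: every gene named Mmp with a number (and a or b), Adamts with a number or Timp with a number. This gave 46 genes of the 54496 symbols found in either cell type, namely 23 MMPs, 19 ADAMTS proteases and 4 TIMPs, and all 46 were listed in both cell types. Reads were too few in 9 members in dermal papilla and in 15 members in stem cells for a test, which left 37 and 31 members tested. Not tested in either were Adamts13, Mmp1a, Mmp1b, Mmp7, Mmp8, Mmp10, Mmp20, Mmp21 and Mmp24, and not tested in stem cells alone were Adamts8, Adamts12, Adamts16, Adamts18, Mmp13 and Mmp25.

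The study compared mouse dermal papilla (DP) cells, the mesenchyme that signals to each follicle from its bulb, with hair follicle stem cells (HFSC) across 18 RNA-seq libraries in 9 groups of 2, all from sorted cells. In the surgery experiment, wild-type C57BL/6 mice had their adrenal glands removed (ADX), or were adrenalectomised and fed corticosterone (ADX+CORT, stem cells only), or had a sham operation (Sham). In the deletion experiment, on a 129/C57BL/6 background, GR KO mice carried Pdgfra-CreER and floxed alleles of the glucocorticoid receptor gene (GR fl/fl), and Control mice were wild type; GR KO and Control mice were both injected with tamoxifen for 6 days. Pdgfra-CreER is active in Pdgfra-expressing mesenchyme, so the receptor was not targeted in the stem cells themselves. The labels give no ages and do not say whether the libraries of a group came from separate mice, so the p-values measure the spread between these libraries, which may be technical.

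Libraries held 6194415 to 13941628 counts in DP and 14067139 to 33014976 in HFSC. The receptor gene Nr3c1 had 137 and 111 counts scaled to library size (CPM) in GR KO DP, against 671 and 978 CPM in Control DP, and 243 and 170.0 CPM in GR KO HFSC, against 258 and 338 CPM in Control HFSC. All 14 papilla markers were detected in every DP group and all 10 stem cell markers in every HFSC group, but dermal fibroblast markers summed to more than papilla markers in every DP library. The largest terms of the fibroblast sum were the matrix genes Dcn, Col1a1 and Col3a1. These are CPM sums of different genes and not per length, so they do not give the share of each cell type. All libraries are labelled female; the 4 GR KO and Control HFSC libraries nevertheless held at most 3 Xist reads and 800 to 1084 Ddx3y reads, while the 6 surgery HFSC libraries held 2096 to 3588 Xist reads and 0 Ddx3y reads, so those 4 libraries go against their label. They enter the HFSC fit, and counts of called members in the surgery comparisons that change without them are given both ways.

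MMPs are zinc endopeptidases made as inactive precursors; together they cut collagens, gelatin, fibronectin and many other matrix and surface proteins. ADAMTS proteases are secreted relatives with thrombospondin repeats: some trim procollagens, others cut the proteoglycans aggrecan and versican. TIMPs bind the active site of these enzymes, and Timp2 also takes part, with the membrane-bound Mmp14, in the activation of pro-Mmp2. In cultured cells the glucocorticoid receptor is known to hold down collagenase and stromelysin transcription at AP-1 sites, which is why the AP-1 motif is shown here.

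Promoter windows of 250 bases before the start were available from RefSeq (GRCm38.p6) for 32 members, in 35 windows. Without a window, and so not searched, were Mmp2, Mmp9, Mmp16, Mmp17, Mmp19, Adamts4, Adamts5, Adamts6, Adamts7, Adamts8, Adamts10, Adamts15, Adamts16 and Adamts19. The AP-1 motif TGAGTCA, searched on both strands (its reverse complement is TGACTCA), was present in 7 of the 35 windows, against 4.46% of all 32851 windows of that length. Those 7 belong to Mmp1a, Mmp1b, Mmp3, Mmp7, Mmp10, Mmp12 and Mmp13, all in the run of 10 MMP genes on chromosome 9 (chr9:7272514-7699585). The windows of Mmp3, Mmp13, Mmp10, Timp1 and Adamts2 are printed 5′ to 3′ on the gene's strand, with the AP-1 motif in capitals. Timp1 and Adamts2 were picked from the members called higher after receptor deletion, and not all of those had a window. They are chr9:7445572-7445821 (plus strand) for Mmp3, chr9:7272264-7272513 (plus) for Mmp13, chr9:7502092-7502341 (plus) for Mmp10, chrX:20869916-20870165 (plus) for Timp1 and chr11:50601835-50602084 (plus) for Adamts2.
Mmp3: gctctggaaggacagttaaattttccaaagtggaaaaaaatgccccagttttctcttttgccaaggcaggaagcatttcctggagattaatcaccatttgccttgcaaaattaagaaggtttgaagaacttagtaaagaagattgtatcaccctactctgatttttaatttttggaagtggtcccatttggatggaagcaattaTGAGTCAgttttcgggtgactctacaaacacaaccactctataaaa
Mmp13: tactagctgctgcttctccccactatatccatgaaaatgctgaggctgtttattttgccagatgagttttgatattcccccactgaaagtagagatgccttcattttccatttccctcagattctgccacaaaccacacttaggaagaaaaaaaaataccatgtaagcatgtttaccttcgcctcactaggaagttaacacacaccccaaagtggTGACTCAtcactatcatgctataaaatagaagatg
Mmp10: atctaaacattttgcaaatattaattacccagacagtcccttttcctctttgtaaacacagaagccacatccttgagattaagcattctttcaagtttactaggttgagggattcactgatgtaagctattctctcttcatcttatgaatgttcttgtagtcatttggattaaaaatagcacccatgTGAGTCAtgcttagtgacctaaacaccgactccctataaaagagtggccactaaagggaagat
Timp1: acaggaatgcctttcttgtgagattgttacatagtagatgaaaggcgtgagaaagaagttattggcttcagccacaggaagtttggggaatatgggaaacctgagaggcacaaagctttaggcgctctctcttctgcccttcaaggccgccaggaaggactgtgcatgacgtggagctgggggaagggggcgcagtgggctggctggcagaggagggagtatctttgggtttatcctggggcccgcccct
Adamts2: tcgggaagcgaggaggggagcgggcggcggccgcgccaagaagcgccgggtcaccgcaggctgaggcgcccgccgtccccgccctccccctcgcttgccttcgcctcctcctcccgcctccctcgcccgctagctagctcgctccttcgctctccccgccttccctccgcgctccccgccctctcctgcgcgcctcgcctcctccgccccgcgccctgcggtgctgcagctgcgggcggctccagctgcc
The first base of the motif lies 46 bases before the annotated start in Mmp3, 35 in Mmp13 and 63 in Mmp10. The letters TATAAA begin 7, 16 and 29 bases before the start in the same order. The distances therefore rest on where each start was annotated and are not compared between genes. The full palindromic glucocorticoid response element (AGAACA, any 3 bases, TGTTCT) was found in 0 member windows and in 0.00913% of all windows. A match is a match of letters only, other forms of these motifs were not searched, and these windows say nothing about more distant sites.

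Levels between genes are given per transcript length, as CPM per kilobase (RPKM), within a cell type only because the cell types were counted differently. In DP the most abundant members were Mmp2, the main gelatinase of fibroblasts, at a mean of 539 RPKM over the 8 libraries (range 264 to 871), Timp2 at 423 RPKM (134 to 927) and Mmp14 at 318 RPKM (161 to 687). Timp3, the inhibitor that binds to matrix and also blocks ADAMTS enzymes, followed at 104 RPKM (21.7 to 251), then Adamts2, a procollagen N-proteinase, at 80.2 RPKM (16.8 to 366). The ranges of neighbours in this order overlapped throughout. With the length of the longest transcript in place of each transcript's own length, Mmp2, Timp2 and Mmp14 came to 309, 301 and 208 RPKM; the first 4 kept their order and Mmp3 passed Adamts2. The collagenases Mmp1a and Mmp1b had 0 reads in every DP library, and Mmp7, Mmp8, Mmp10, Mmp20 and Mmp24 stayed below a mean of 0.13 RPKM.

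In HFSC the inhibitor Timp2 stood first at a mean of 202 RPKM over the 10 libraries (range 114 to 292), and its range did not overlap that of the next member. Mmp14 had 42.4 RPKM (23.5 to 77.3), Mmp2 22.3 RPKM (9.69 to 59.8), Adamts1, a versican- and aggrecan-cleaving enzyme, 13.6 RPKM (6.23 to 21.4) and Timp3 11.0 RPKM (4.0 to 22.4). The range of Mmp14 overlapped that of Mmp2 and lay above those of Adamts1 and Timp3, and the ranges of Mmp2, Adamts1 and Timp3 overlapped. Mmp1a, Mmp10, Mmp20 and Adamts16 had 0 reads in every HFSC library. Of the members with an AP-1 motif in the window, Mmp3 in DP was the only one with a mean above 5 RPKM over all libraries of a cell type; Mmp12 had a mean of 3.80 RPKM in DP and reached 13.9 RPKM in the first GR KO library.

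**Figure D1:**
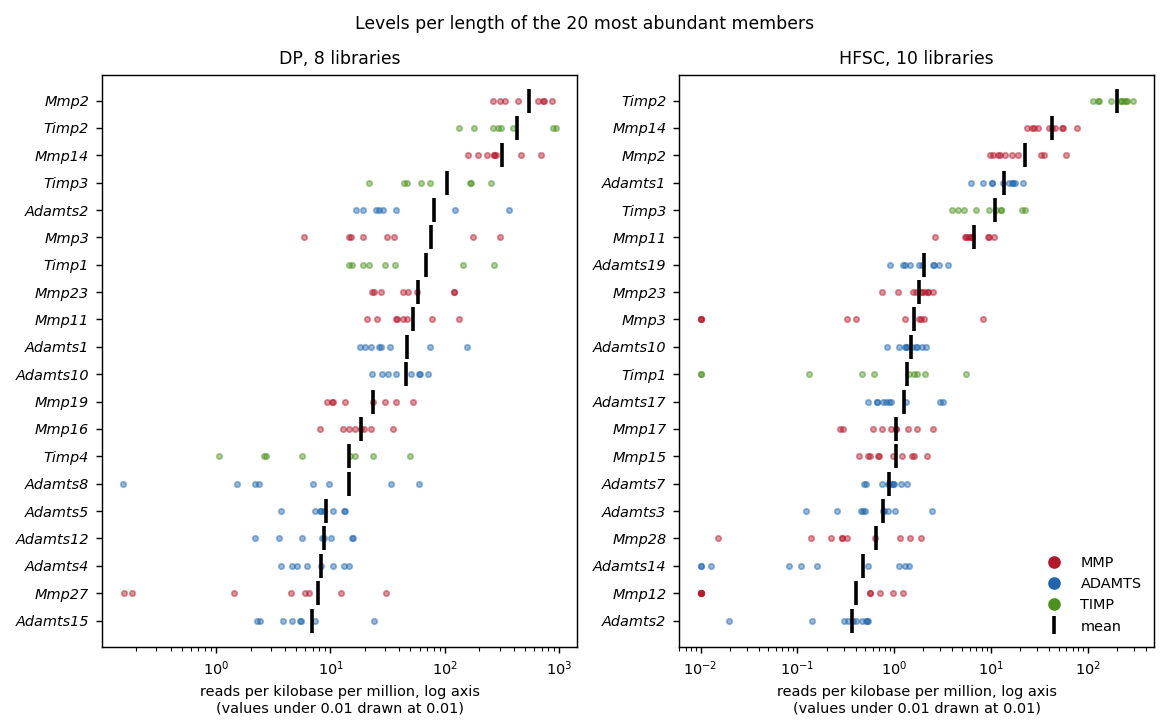
Per-length levels of the 20 most abundant members in DP (left, 8 libraries) and HFSC (right, 10 libraries); each point is a library, colours mark the family and black bars are means, on a log axis. Mmp2, Timp2 and Mmp14 lead in DP at 539, 423 and 318 RPKM, and Timp2 leads in HFSC at 202 RPKM.

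The first comparison asked what loss of the glucocorticoid receptor in the dermis did in DP cells. In GR KO, 8 of the 37 tested members passed the threshold, all of them higher, in edgeR's quasi-likelihood test with Benjamini-Hochberg adjustment over all genes tested. Over all 23463 genes tested, 0.767% were called higher and 0.771% lower. The 8 are Adamts2, Adamts10, Adamts12, Adamts19, Mmp2, Mmp23, Timp1 and Timp2. By role these were 1 of 3 procollagen N-proteinases, 1 of 2 gelatinases, 1 of 2 enzymes that cut cartilage oligomeric matrix protein, 2 of 4 inhibitors and 3 members of mixed roles. They are not neighbours: on GRCm38, for example, Mmp2 lies at chr8:92827291-92853420, Adamts2 at chr11:50602084-50807573, Timp2 at chr11:118301069-118355740, Mmp23 at chr4:155650655-155653384 and Timp1 at chrX:20870166-20874735. In all, 33 members had a positive log2 fold change, with a median of 1.51 over the 37, beside 56.4% of all genes and a median of 0.17. The GR KO and Control libraries did not overlap in 27 members, all higher in GR KO, against 31.6% of all genes higher and 20% lower. At an unadjusted p under 0.05 there were 25 members, all higher, beside 9.67% of all genes. DESeq2 called 16 members, all higher, where it called 4.11% of all genes higher. With median-of-ratios scaling the calls over all genes split into 134 higher and 247 lower in place of 180 and 181, and the median over all genes was 0.07 (0 in DESeq2).

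Among the ADAMTS proteases, Adamts2, which removes the amino-terminal propeptide of fibrillar procollagens, had 2193 and 804 CPM in GR KO DP, against 241 and 132 CPM in Control DP. Both GR KO libraries lay above both Control libraries, and the log2 fold change was 3.0 (SE 0.49, by edgeR an adjusted p of 0.0304). Its relatives Adamts14, with 29.4 and 21.2 CPM in GR KO and 15.6 and 9.57 CPM in Control, and Adamts3, with 2.92 and 3.33 CPM in GR KO and 1.34 and 0.651 CPM in Control, had the same order of groups without passing the threshold. Adamts12, which cuts cartilage oligomeric matrix protein, had 54.0 and 96.1 CPM in GR KO and 23.3 and 15.6 CPM in Control, a log2 ratio of 1.94 (SE 0.39, by edgeR an adjusted p of 0.0460). In the surgery experiment the Sham libraries held 61.07 and 95.02 CPM of Adamts12, so the GR KO level lay near Sham and the Control level stood below it. Sham libraries likewise lay above both Control libraries and overlapped the GR KO range for Adamts10 (175 and 138 CPM in Sham) and Mmp11 (111 and 68.9 CPM in Sham). The same held for Mmp19 (89.2 and 78.8 CPM in Sham, where GR KO had 94.2 and 42.7 CPM and Control had 29.9 and 32.9 CPM). It also held for Adamts19, with 1.74 and 9.66 CPM in Sham, 17.9 and 6.82 CPM in GR KO and 0.315 and 0.186 CPM in Control. Adamts4, Adamts7, Adamts9 and Mmp12 had this pattern as well. The experiments also differ in strain and tamoxifen, and these differences were not tested.

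Adamts19 had 220 and 86 reads in GR KO DP, against 4 and 2 reads in Control DP, a log2 ratio of 5.55 (SE 1.16, by edgeR an adjusted p of 0.0492). Adamts16 was read 78 and 28 times in GR KO and 0 times in either Control library, at least 33.2-fold higher when Control as a group is set to 3 reads, with an adjusted p of 0.0854 in edgeR. Adamts18 had 41.1 and 29.6 CPM in GR KO and 1.97 and 0.0930 CPM in Control, with an edgeR adjusted p of 0.0713. These 3 are little-studied members that stood far above Control in both GR KO libraries, at levels under 50 CPM.

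Adamts10, known for binding to fibrillin microfibrils, had 155 and 185 CPM in GR KO and 75.7 and 62.6 CPM in Control, a log2 ratio of 1.30 (SE 0.26, by edgeR an adjusted p of 0.0475). Only 2.89% of its DP reads were assigned to its protein-coding transcript, which had 0 reads in either GR KO library and 69.2 and 0 estimated reads in Control. Its reads were assigned mostly to models annotated as retained intron, nonsense-mediated decay or processed transcript. Among the proteoglycan-cleaving enzymes, Adamts1 had 527 and 261 CPM in GR KO and 156 and 128 CPM in Control, an edgeR adjusted p of 0.0652 and a DESeq2 adjusted p of 0.00768. Of the 7 tested, edgeR called 0, with 5 at an unadjusted p under 0.05, and DESeq2 called Adamts1 alone. These 5 were all higher in GR KO, beside 9.67% of all genes higher at that threshold, and DESeq2 called 4.11% of all genes higher.

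Mmp2 had 1529 and 1712 CPM in GR KO DP, against 598 and 468 CPM in Control DP. The groups did not overlap, and the log2 fold change was 1.6 (SE 0.32, by edgeR an adjusted p of 0.0432). Its surface activator Mmp14 had 909 and 1381 CPM in GR KO and 556 and 490.4 CPM in Control, with a log2 fold change of 1.13 and an edgeR adjusted p of 0.0886. Mmp23, a small membrane-anchored MMP, had 156 and 151 CPM in GR KO and 35.7 and 32.1 CPM in Control. The libraries of each group lay close together, and the log2 fold change was 2.17 (SE 0.36, by edgeR an adjusted p of 0.0312). The stromelysin Mmp11 had 65.7 and 228 CPM in GR KO and 31.0 and 28.3 CPM in Control, with an edgeR adjusted p of 0.0575. Mmp3, with the AP-1 motif shown above, had 27.2 and 56.0 CPM in GR KO and 25.9 and 65.3 CPM in Control, so the groups overlapped fully.

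Of the inhibitors, Timp1, an inducible and broadly acting TIMP, had 229 and 123 CPM in GR KO DP, against 31.4 and 16.1 CPM in Control DP, a log2 ratio of 2.89 (SE 0.49, by edgeR an adjusted p of 0.0312). Timp2 had 2333 and 2354 CPM in GR KO, against 951 and 694 CPM in Control. The GR KO libraries lay close together and above both Control libraries, and the log2 fold change was 1.51 (SE 0.27, by edgeR an adjusted p of 0.0373). Timp3 had 1109 and 742 CPM in GR KO and 711 and 326 CPM in Control, and Timp4 had 64.1 and 13.2 CPM in GR KO and 123 and 37.6 CPM in Control. Neither passed the threshold, with edgeR adjusted p of 0.455 and 0.639. Summed levels of proteases and of inhibitors both lay higher in the GR KO libraries, without a test of the sums: the summed level was 1475 and 1948 RPKM for MMPs in GR KO, against 713 and 656 RPKM in Control, and 1430 and 1245 RPKM for TIMPs in GR KO, against 641 and 371 RPKM in Control. The ratio of summed TIMP to summed MMP level was 0.970 and 0.639 in GR KO and 0.898 and 0.566 in Control, so its ranges overlapped.

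**Figure D2:**
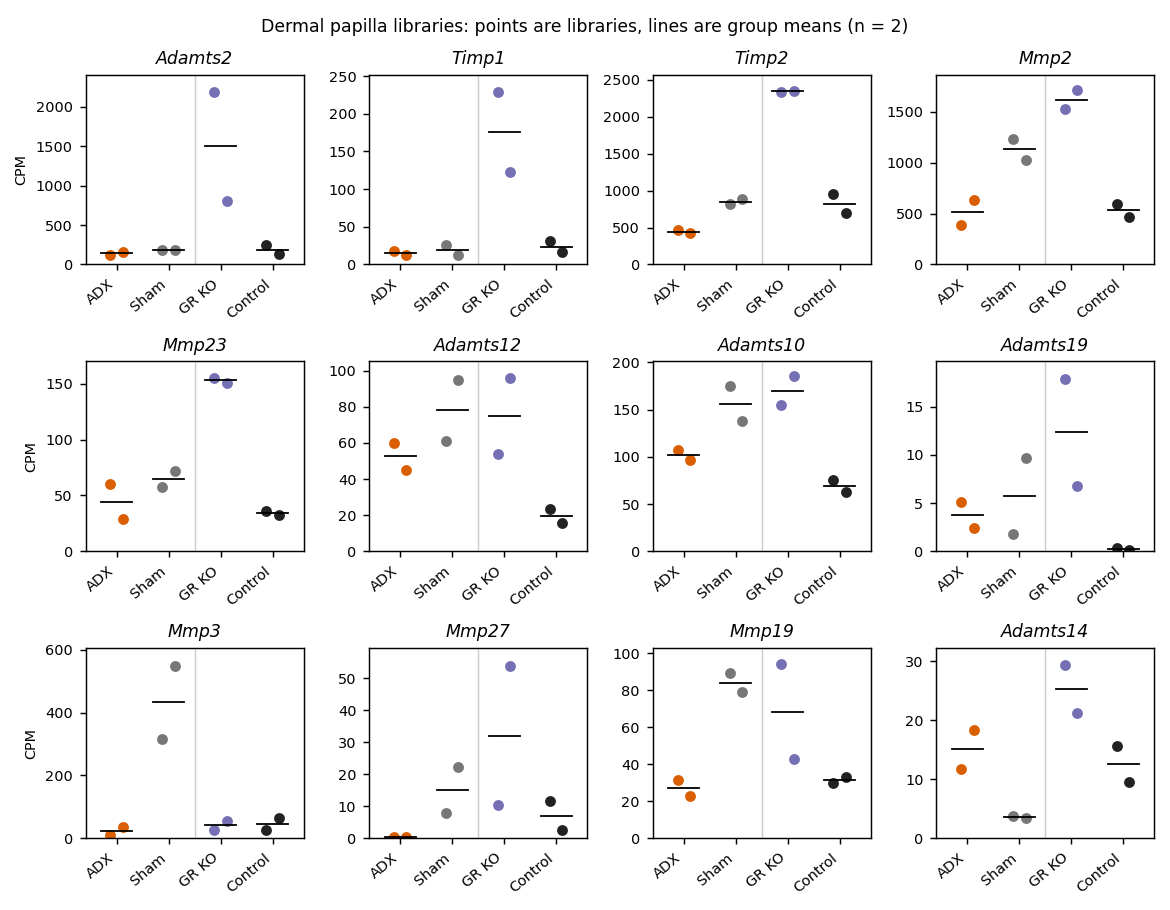
CPM of 12 members in the 8 DP libraries; points are libraries, lines are means of 2, and the grey line parts the experiments. The first 8 panels are the members called in GR KO over Control; Mmp3, Mmp27, Mmp19 and Adamts14 are the 4 with the smallest p in ADX over Sham.

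Sums of cell type markers in these libraries are set beside the genes above. Dermal fibroblast markers, all 10 detected in each group, summed to 49575 and 57254 CPM in GR KO DP and 19964 and 13462 CPM in Control DP, while the 14 papilla markers summed to 2182.1 and 2711.2 CPM in GR KO and 4207 and 7200.4 CPM in Control. Of the papilla markers 8 had a negative and 6 a positive log2 fold change, with a median of -0.27. Libraries did not overlap in 6 of them, all lower in GR KO. Crabp1, the largest term, had 495 and 958 CPM in GR KO and 1854 and 3460 CPM in Control. The fibroblast list shares Col1a1, Col3a1, Dcn and Lum with the substrate list used here. With Col1a1 and Col3a1 left out, its sum came to 12840 and 21670 CPM after deletion, where Control libraries held 9492 and 8622 CPM. Among the 10 fibroblast markers, 9 log2 fold changes were positive and 1 negative, with a median of 1.19. Without overlap, 8 were higher and 1 lower, and edgeR called 1, a higher one. The lower one was Dpp4, at 113 and 104 CPM after deletion, where Control libraries held 171 and 223 CPM. The 10 stem cell markers summed to 1526 and 1110 CPM in GR KO and 702 and 340.3 CPM in Control. Of this, Cd34 alone had 947 and 943 CPM in GR KO and 275 and 152.5 CPM in Control. Krt5, Krt14 and Krt15 had 73.2 to 145.5 CPM in the first GR KO library, at most 0.555 CPM in the second and 18.5 to 104 CPM in Control. Keratinocyte markers summed to 785 and 42.1 CPM in GR KO and 546 and 349 CPM in Control, which overlapped. Skeletal muscle markers summed to 420.4 and 26.6 CPM in GR KO and 35.5 and 16.5 CPM in Control. Macrophage and dendritic markers summed to 2736 CPM in the first GR KO library and 41.6 CPM in the other, and to 164 to 321 CPM in Control. Mmp12, the macrophage elastase, had 22.2 and 2.38 CPM in GR KO, against at most 1.95 CPM in Control. The gelatinase Mmp9 had 23.5 and 7.53 CPM in GR KO, against at most 2.76 CPM in Control. Over all DP libraries, 71% of Mmp12 reads were assigned to a model annotated as retained intron and 19.6% to protein-coding transcripts. That model took 22.4 of 273 reads in the first GR KO library and 29.5 of 30 in the second. Across the surgery DP libraries Mmp12 ranged from 7.06 to 26.7 CPM, where macrophage and dendritic marker sums ranged from 212.7 to 311.0 CPM. The part of these cells in the results was not tested; in bulk libraries, fewer cells of a type and less RNA per cell cannot be told apart.

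Genes that act with these proteases were counted from fixed lists. Over all genes tested in GR KO DP, edgeR called 0.767% higher and 0.771% lower. Of 20 tested matrix substrates 5 were called higher and 0 lower in GR KO DP: Fn1 (log2 fold change 3.37), Fbn1 (2.23), Col1a2 (2.18), Col3a1 (2.12) and Bgn (1.38). Of 30 activators, inhibitors and related proteases 3 were called, all higher, namely the osteoclast and fibroblast collagenolytic cathepsin Ctsk (2.18) and the sheddases Adam12 (3.04) and Adam10 (1.44). Of 12 AP-1, ETS and NF-kB factors edgeR called 0, with 2 at an unadjusted p under 0.05, and DESeq2 called 1, which was lower. Among 8 glucocorticoid-responsive check genes edgeR called 5 lower, including Nr3c1 itself, Tsc22d3 and Fkbp5. Sgk1 and Dusp1 lay the other way without overlap: Sgk1 had 185 and 237 CPM in GR KO and 91.3 and 32.4 CPM in Control (edgeR adjusted p = 0.111, DESeq2 adjusted p = 0.0145), and Dusp1 had 979 and 1141 CPM in GR KO and 508.5 and 610.5 CPM in Control (edgeR adjusted p = 0.145).

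**Figure D3:**
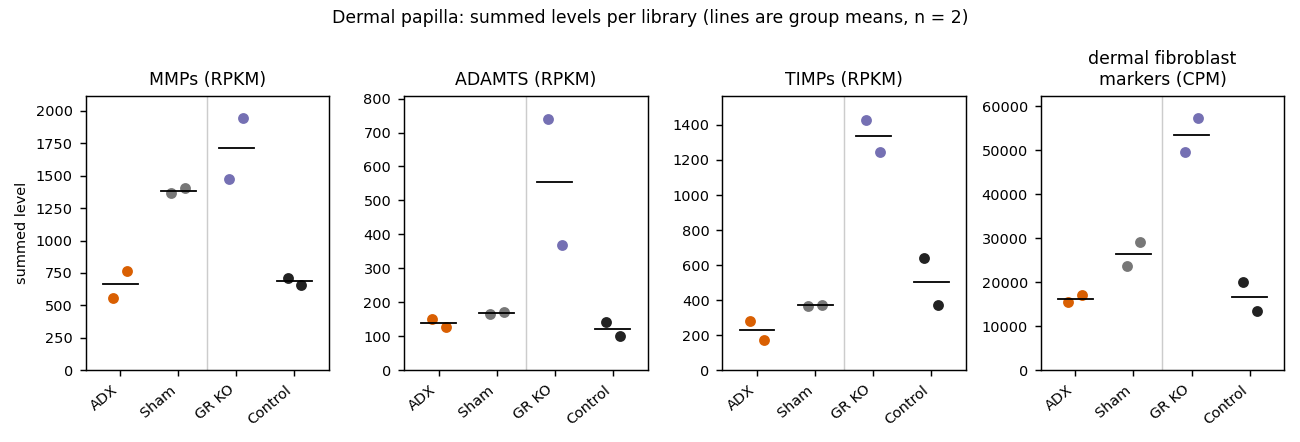
Summed per-length level of MMPs, ADAMTS and TIMPs and summed CPM of 10 dermal fibroblast markers in each DP library; points are libraries and lines are means of 2. All 4 sums are higher in the GR KO than in the Control libraries, and all 4 are lower in the ADX than in the Sham libraries.

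The calls in GR KO DP depend on few libraries: without the second Control library 0 of the 8 remained, without the first Control library 2, without the first GR KO library 3 and without the second GR KO library 4; counting other members too, 0, 3, 4 and 7 were called. All 8 kept a positive log2 fold change in each of these fits, and the fit on GR KO and Control libraries alone called 1 member.

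The second comparison asked what removal of the adrenal glands, and with them circulating corticosterone, did in DP cells. By edgeR 0 of the 37 members were called, where 0.017% of all genes were called. At an unadjusted p under 0.05 there were 10 members, 4 higher and 6 lower, beside 11.7% of all genes, and DESeq2 called 6 members, 2 higher and 4 lower, beside 2.44% of all genes. Log2 fold changes were positive in 16 and negative in 21 members, with a median of -0.34; over all genes 53.5% were positive with a median of 0.08 (0.16 with median-of-ratios scaling and 0.34 in DESeq2). The libraries did not overlap in 11 members higher and 14 lower in ADX, against 23.9% and 19.4% of all genes.

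The stromelysin Mmp3, which cuts many matrix proteins and activates other MMPs, had 10.6 and 34.7 CPM in ADX DP, against 317 and 549 CPM in Sham DP. Both ADX libraries lay far below both Sham libraries, with a log2 ratio of -4.25 (SE 0.68), an edgeR adjusted p of 0.138 and a DESeq2 adjusted p of 1.29e-10. In the deletion experiment, Control DP had 25.9 and 65.3 CPM of Mmp3, which overlapped ADX and lay below both Sham libraries. The experiments differ in strain and tamoxifen, and this difference between Sham and Control was not tested. Of the 7 members with an AP-1 motif in the window, Mmp1a and Mmp1b had 0 DP reads, Mmp7 and Mmp10 were not tested, and Mmp12 and Mmp13 overlapped between ADX and Sham. Mmp27, in the same chromosome 9 run as Mmp3 and without that motif in its window, had 2 and 3 reads in ADX and 92 and 275 reads in Sham, with a log2 ratio of -5.52 (SE 1.18, by edgeR an adjusted p of 0.183). Its Control libraries, at 11.6 and 2.51 CPM, lay above ADX (0.278 and 0.352 CPM) and overlapped Sham (8.02 and 22.1 CPM).

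Mmp19 had 31.6 and 22.9 CPM in ADX and 89.2 and 78.8 CPM in Sham, a log2 ratio of -1.63 (SE 0.39, by edgeR an adjusted p of 0.217). Control, at 29.9 and 32.9 CPM of Mmp19, overlapped ADX. Mmp19 shares 789 exon bases with Tmem198b on the other strand, whose reads cannot be told apart where the counting ignores strand. Mmp2 had 392 and 636 CPM in ADX and 1235 and 1025 CPM in Sham, with a log2 ratio of -1.14 (SE 0.31, by edgeR an adjusted p of 0.250). Timp2 followed the same order, with 460.5 and 428.5 CPM in ADX and 814 and 885 CPM in Sham (log2 fold change -0.93, SE 0.27, by edgeR an adjusted p of 0.271). The procollagen N-proteinase Adamts14 went the other way, with 11.8 and 18.4 CPM in ADX and 3.83 and 3.38 CPM in Sham (log2 fold change 2.06, SE 0.51, by edgeR an adjusted p of 0.234). Control, at 15.6 and 9.57 CPM of Adamts14, overlapped ADX.

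Timp1 had 18.3 and 12.2 CPM in ADX and 25.4 and 13.1 CPM in Sham, and Timp3 had 257 and 99.7 CPM in ADX and 207 and 196 CPM in Sham, so both overlapped. Timp4 had 40.4 and 6.21 CPM in ADX and 3.22 and 4.51 CPM in Sham. Mmp14, with 389 and 472 CPM in ADX and 582 and 619 CPM in Sham, did not overlap but had an edgeR adjusted p of 0.552. Beside these values, keratinocyte markers summed to 349 and 201 CPM in ADX and 785 and 2933 CPM in Sham, fibroblast markers to 15391 and 17103 CPM in ADX and 23715 and 29046 CPM in Sham, and pericyte and smooth muscle markers to 5804 and 989 CPM in ADX and 339 and 426 CPM in Sham. Their part in the member values was not tested. Among the substrates, related proteases and transcription factors edgeR called 0 of 62 genes, with 13 at an unadjusted p under 0.05, and DESeq2 called 1, the proteoglycan Acan, which was higher in ADX (DESeq2 adjusted p = 0.00445). Over all genes, 11.7% had an unadjusted p under 0.05 in edgeR, and DESeq2 called 2.44%.

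**Figure D4:**
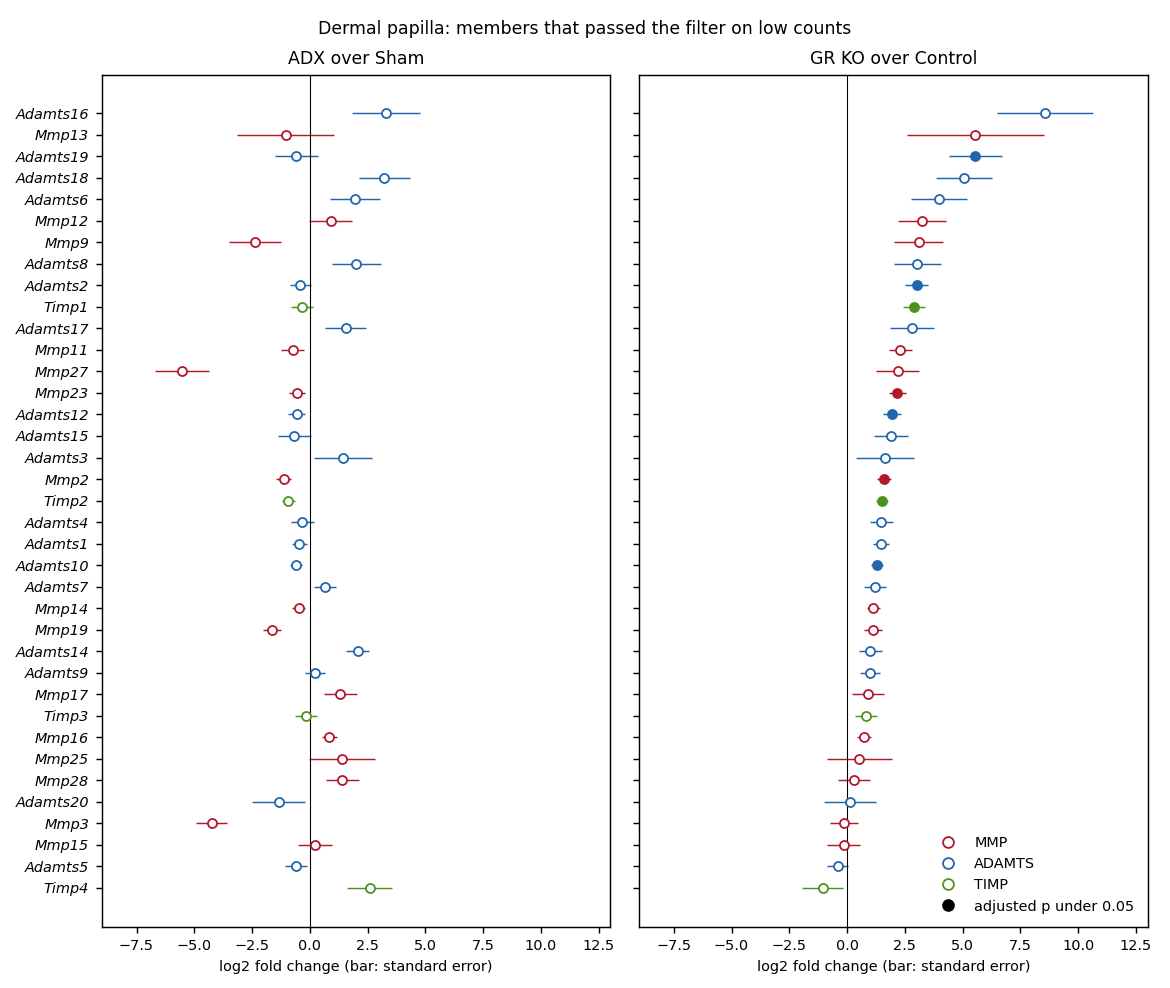
Log2 fold changes of the 37 tested members in DP for ADX over Sham (left) and GR KO over Control (right), with standard errors; filled points passed the edgeR threshold. In GR KO over Control 33 members lie right of 0 and 8 are filled; in ADX over Sham 16 lie right of 0 and 0 are filled.

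Adrenalectomy and receptor deletion were then set against each other in DP, by testing the difference of the effects in the same fit. It was called for 2 members, Timp2 (difference of log2 fold changes 2.45, SE 0.39, by edgeR an adjusted p of 0.0349) and Mmp2 (2.74, SE 0.44, by edgeR an adjusted p of 0.0371), where 0.477% of all genes were called. For both, the libraries were higher in GR KO than in Control and lower in ADX than in Sham. For Mmp2 the reference groups also differed, with 1235 and 1025 CPM in Sham and 598 and 468 CPM in Control. ADX, with 392 and 636 CPM of Mmp2, overlapped Control, and GR KO, with 1529 and 1712 CPM, lay above Sham. For Timp2, Sham (814 and 885 CPM) overlapped Control (951 and 694 CPM). Mmp23, Adamts2, Adamts10 and Mmp27 followed with edgeR adjusted p of 0.0515 to 0.0572, and DESeq2 called 15 members beside 6.66% of all genes. With median-of-ratios scaling the calls over all genes split into 46 higher and 45 lower in place of 82 and 30, and Timp2 and Mmp2 stayed called. Mmp3 differed by 4.12 (SE 0.88, by edgeR an adjusted p of 0.0664), being lower in both ADX than in both Sham libraries and overlapping between GR KO and Control. The experiments differ in strain and tamoxifen as well, and these cannot be told apart from the difference between receptor deletion and adrenal removal. Neither call held when any single ADX, Sham or Control library was left out. Over all alternative settings the difference ranged from 2.04 to 2.55 for Timp2 and from 2.39 to 2.90 for Mmp2.

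In stem cells after adrenalectomy, the matrix-bound inhibitor Timp3 was higher: it had 103 and 76.9 CPM in ADX HFSC, against 37.3 and 32.6 CPM in Sham HFSC. Its log2 fold change was 1.37 (SE 0.24, by edgeR an adjusted p of 0.0393), and it was the 1 member called of 31, where 0.295% of all genes were called. The call was lost without either Sham library or the first ADX library (edgeR adjusted p up to 0.247) and with replicate number as a block (0.0558), and was kept without the 4 libraries that go against their label. Timp3 lies inside the synapsin gene Syn3 and shares 1733 of its 8144 exon bases with it on the other strand. Timp2 had the reverse order, with 445.5 and 673 CPM in ADX and 988 and 868 CPM in Sham (log2 fold change -0.73, SE 0.24, by edgeR an adjusted p of 0.170, DESeq2 adjusted p = 0.0271). DESeq2 called 3 members beside 5.99% of all genes, and 9 had an unadjusted p under 0.05 in edgeR, beside 15.2%. The libraries did not overlap in 9 members higher and 5 lower in ADX, against 25.5% and 23.9% of all genes.

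Adamts20, a versican-cleaving enzyme, had 63 and 42 reads in ADX and 2 and 0 reads in Sham, 52.3 times as many per library size (95% exact interval from counting alone 14.1 to 437) and an edgeR adjusted p of 0.122. Mmp12 was read 58 times in the first ADX library and 0 times in the second and in both Sham libraries. Adamts1 had 69.9 and 80.6 CPM in ADX and 33.0 and 54.7 CPM in Sham, with a log2 fold change of 0.78 and an edgeR adjusted p of 0.187. Mmp2, with 32.2 and 58.2 CPM in ADX and 29.4 and 36.1 CPM in Sham, overlapped. Timp1 stayed at or below 1.84 CPM and Timp4 had 0 reads in ADX and Sham alike. The 10 stem cell markers summed to 22095 and 33057 CPM in ADX and 44297 and 49108 CPM in Sham, and macrophage markers to 108 and 157 CPM in ADX and 59.6 and 80.4 CPM in Sham. Dermal fibroblast markers, of which 9 of 10 were detected in ADX, summed to 308 and 265 CPM in ADX and 93.5 and 158 CPM in Sham. Of the 10, 7 had a positive and 3 a negative log2 fold change, with 2 higher and 2 lower without overlap. The 2 higher were Ly6a (124 and 111 CPM in ADX, 26.8 and 31.4 CPM in Sham) and Dcn (99.0 and 64.8 CPM in ADX, 21.0 and 34.5 CPM in Sham). The 2 lower were Pdgfra and Pi16, at most 3.18 CPM in any ADX or Sham library. Melanocyte markers summed to 39.9 and 36.6 CPM in ADX and 11.2 and 14.7 CPM in Sham, and endothelial markers to 34.4 and 14.2 CPM in ADX and 7.6 and 11.1 CPM in Sham. No sum overlapped between ADX and Sham, and their part in the Timp3 value was not tested.

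Corticosterone feeding after adrenalectomy gave 0 called members of 31 against ADX in edgeR, as it gave 0% of all genes. At an unadjusted p under 0.05 there were 8 members, 4 in each direction, beside 19.3% of all genes, and DESeq2 called 4 members beside 9.39% of all genes. Timp2 had 1137 and 972 CPM in ADX+CORT HFSC, against 445.5 and 673 CPM in ADX HFSC, a log2 ratio of 0.91 (SE 0.24, by edgeR an adjusted p of 0.0725). Timp3 had 56.7 and 43.0 CPM in ADX+CORT and 103 and 76.9 CPM in ADX, a log2 ratio of -0.85 (SE 0.23, by edgeR an adjusted p of 0.0766). Mmp14, the surface protease, had 332 and 231 CPM in ADX+CORT and 120.2 and 169 CPM in ADX (log2 fold change 0.96, SE 0.30, by edgeR an adjusted p of 0.110), and Mmp11 had 27.4 and 23.8 CPM in ADX+CORT and 6.75 and 14.3 CPM in ADX (1.28, SE 0.40, by edgeR an adjusted p of 0.108). In each of these 4 genes the ADX+CORT and ADX libraries did not overlap, as in 6 members higher and 10 lower in ADX+CORT, against 26.7% and 25.8% of all genes. Stem cell markers summed to 42170 and 44168 CPM in ADX+CORT and 22095 and 33057 CPM in ADX, without overlap, and their part was not tested. Without the 4 libraries that go against their label 2 members were called. Both contrasts share the ADX libraries, so a value high or low in ADX enters them with opposite signs.

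Set directly against Sham, ADX+CORT stem cells had 0 called members in edgeR and 0 in DESeq2, where edgeR called 0% and DESeq2 0.42% of all genes; 3 members had an unadjusted p under 0.05, beside 6.09% of all genes. Timp2 had 1137 and 972 CPM in ADX+CORT and 988 and 868 CPM in Sham, which overlapped, and Timp3 had 56.7 and 43.0 CPM in ADX+CORT and 37.3 and 32.6 CPM in Sham. Mmp28, an MMP of keratinocytes, had 4.40 and 7.38 CPM in ADX+CORT and 0.0587 and 1.27 CPM in Sham (log2 fold change 3.16, SE 1.16, by edgeR an adjusted p of 0.768). Mmp15, a membrane-type MMP of epithelia, had 6.95 and 6.62 CPM in ADX+CORT and 2.94 and 2.47 CPM in Sham, with an edgeR adjusted p of 0.823. Timp4 had 12 and 28 reads in ADX+CORT and 0 reads in Sham, at least 11.2-fold higher by the same floor. In 7 members ADX+CORT libraries lay above Sham and in 4 below, against 21.5% and 19.1% of all genes.

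**Figure D5:**
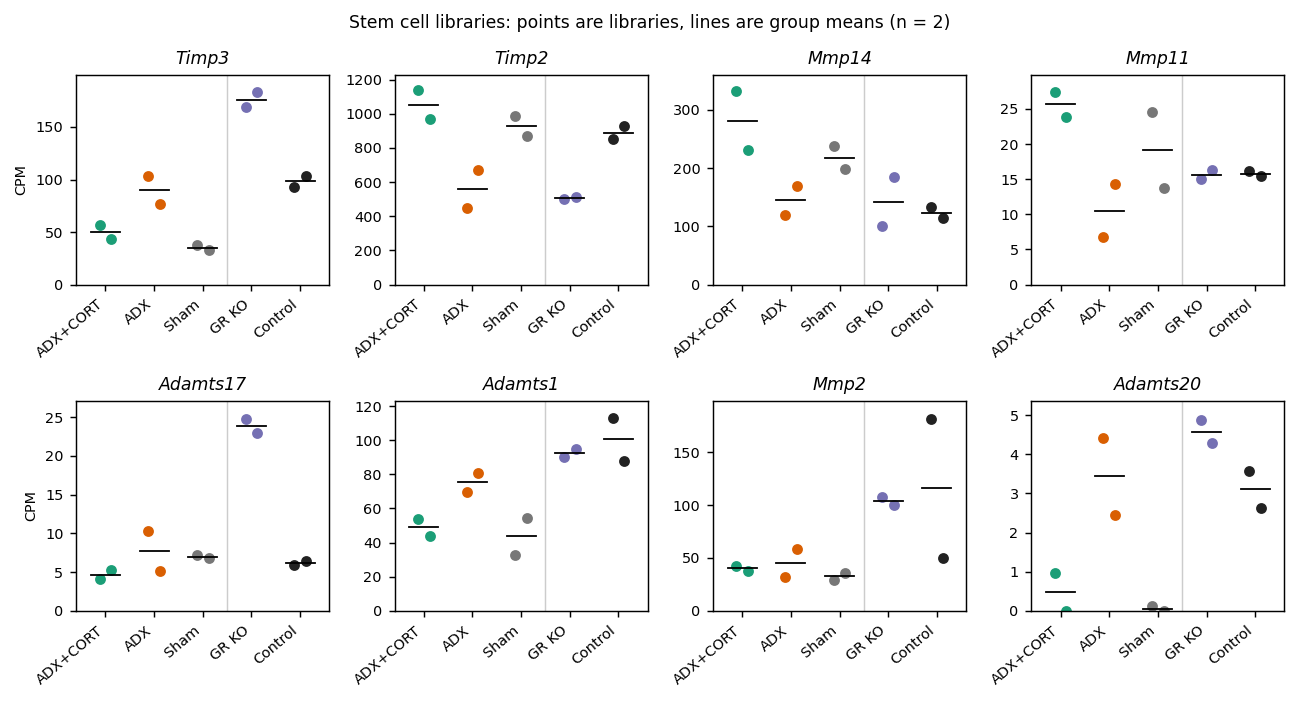
CPM of 8 members in the 10 HFSC libraries; points are libraries, lines are means of 2, and the grey line parts the experiments. Timp3 is higher and Timp2 lower in ADX than in Sham, and the same order holds for GR KO and Control; Adamts17 stands at 24.8 and 23.0 CPM in GR KO and at most 10.3 CPM elsewhere.

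The last comparison asked how stem cells differed when the receptor was deleted in the mesenchyme around them. In edgeR 0 of the 31 members were called, where 0.985% of all genes were called; 7 members had an unadjusted p under 0.05, 5 higher and 2 lower, beside 13.1% of all genes, and DESeq2 called 3 members beside 4.85% of all genes. Adamts17 had 24.8 and 23.0 CPM in GR KO HFSC, against 5.88 and 6.43 CPM in Control HFSC, and its GR KO libraries stood above all 8 other HFSC libraries. Its log2 fold change was 1.96 (SE 0.43) with an edgeR adjusted p of 0.0515 and a DESeq2 adjusted p of 0.000720; with median-of-ratios scaling or in a fit of GR KO and Control libraries alone 1 member was called. The procollagen N-proteinase Adamts3 had 4.19 and 4.68 CPM in GR KO and 0.664 and 1.40 CPM in Control (2.08, SE 0.78, by edgeR an adjusted p of 0.264).

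Timp3 had 169 and 183 CPM in GR KO HFSC, against 92.8 and 104 CPM in Control HFSC (log2 fold change 0.84, SE 0.23, by edgeR an adjusted p of 0.117, DESeq2 adjusted p = 0.0154). Timp2 had 502.5 and 510.2 CPM in GR KO and 852 and 929 CPM in Control (log2 fold change -0.81, SE 0.24, by edgeR an adjusted p of 0.137, DESeq2 adjusted p = 0.0118). As a share of the summed TIMP level per length, Timp2 made up 85.6% and 82.3% in GR KO and 94.9% and 94.2% in Control, and 89.0% and 94.8% in ADX against 98.2% and 97.3% in Sham. Mmp2, with 108 and 100.5 CPM in GR KO and 182 and 50.0 CPM in Control, Mmp14, with 101 and 184 CPM in GR KO and 133 and 114 CPM in Control, and Adamts1, with 90.0 and 94.9 CPM in GR KO and 113 and 88.1 CPM in Control, overlapped. In 9 members GR KO libraries lay above Control and in 5 below, against 19.3% and 19.1% of all genes.

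Stem cell markers summed to 23682 and 36092 CPM in GR KO HFSC and 47708 and 55799 CPM in Control HFSC, papilla markers to 326 and 347 CPM in GR KO and 551 and 531 CPM in Control, and dermal fibroblast markers to 72.2 and 76.4 CPM in GR KO and 138 and 108 CPM in Control. None of these sums overlapped between GR KO and Control, and their part in the member values was not tested. Of the stem cell markers 7 had a negative and 3 a positive log2 fold change, with a median of -0.24. Libraries did not overlap in 3 of them, all lower in GR KO. Krt15, the largest term, had 14840 and 20860 CPM in GR KO and 31410 and 36210 CPM in Control. Macrophage and dendritic markers summed to 2242 to 2698 CPM in GR KO HFSC and 2193 to 2374 CPM in Control HFSC, and to at most 157 CPM in the 6 surgery libraries. Mmp12 had 5.19 and 7.02 CPM in GR KO and 8.99 and 4.06 CPM in Control, and 58 reads in 1 of the 6 surgery libraries. The difference between the effects of deletion and adrenalectomy in HFSC was called for 0 members in edgeR and in DESeq2, where they called 0% and 0.649% of all genes; at an unadjusted p under 0.05 there were 6 members, beside 10.6%. Among 57 tested substrates, related proteases and transcription factors edgeR called 0 genes in each HFSC comparison. DESeq2 called 5 in ADX over Sham, 7 in ADX+CORT over ADX, 0 in ADX+CORT over Sham, 9 in GR KO over Control and 3 for the difference of effects. The counts at an unadjusted p under 0.05 in edgeR were 10, 10, 8, 17 and 14 in the same order. Over all genes DESeq2 called 5.99%, 9.39%, 0.42%, 4.85% and 0.649% in that order. The shares of all genes at an unadjusted p under 0.05 in edgeR were 15.2%, 19.3%, 6.09%, 13.1% and 10.6%.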

How the data were processed

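RNA was sequenced from 8 DP and 10 HFSC libraries made with SMART-Seq v4 and Nextera XT, which do not mark strand, per the labels' protocols. DP values are the estimated counts for each transcript that the authors deposited, from Salmon and mm10 (submitters' processing notes); these expected counts were summed to genes through GENCODE M21 (GRCm38, the assembly of mm10) and rounded, with 150 of 134967 transcripts unmatched (at most 0.0752% of a library). For HFSC the authors deposited whole-number counts per gene from featureCounts 1.6.1 at mapping quality 30 or more, without a strand option, per the file headers. Also listed in the submitters' processing notes are Trim Galore 0.4.1, STAR 2.5.3 and DESeq2 1.22.2, but a Salmon version is not given in the sources used here. In some HFSC files 27 gene names stood as dates and were restored from coordinates.

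Each cell type was fitted in 1 edgeR 4.0.16 model (R 4.3.3) with a mean per group, TMM scaling, filterByExpr and the quasi-likelihood test, with Benjamini-Hochberg adjustment over 23463 DP and 15231 HFSC genes and a threshold of 0.05; standard errors come from the F statistic. Spread between libraries (biological coefficient of variation) came to 54.0% for DP, 38.7% for HFSC. DESeq2 1.42.0 was an alternative, as were other scaling, no filter, a replicate block, the compared groups alone and each library left out. CPM is relative to scaled library sizes; RPKM divides by transcript length (DP) or the deposited gene length (HFSC). Intervals and floors (3 reads) cover counting error only, since PCR copies were not marked by molecular identifiers. The fit was tested on simulated data. Genes given in full were those called, the 4 with the smallest p per comparison, the 5 most abundant per cell type and the 4 TIMPs. Members, lists and this rule were chosen with earlier results of these data known. Adamts14 and Adamts3 in GR KO DP, Mmp11, Adamts1, Adamts4, Adamts7, Adamts9, Adamts16, Adamts18, Mmp9, Mmp12, Acan, Sgk1 and Dusp1 in DP were named after their values were seen. So were the single marker genes whose values are given.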

Additional observations from a re-analysis of the deposited data

Results flagged for a closer look

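Some members had libraries that moved in opposite directions in the 2 cell types under the same contrast: every library of one group lay above the other group in DP and below it in HFSC, or the reverse. The cell types were counted differently, so the difference was not tested.

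In GR KO against Control, Timp2 had a log2 fold change of 1.51 in DP and -0.81 in HFSC. Mmp23 had 2.17 in DP and -1.10 in HFSC. Adamts4, a proteoglycan-cleaving enzyme, had 1.48 in DP and -5.55 in HFSC, the HFSC value from 0 GR KO reads and 14 Control reads.

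In ADX against Sham, Adamts1 had a log2 fold change of -0.46 in DP and 0.78 in HFSC. Adamts20 had -1.34 in DP and 5.65 in HFSC. Mmp19 had -1.63 in DP and 4.03 in HFSC, Mmp9 had -2.39 in DP and 6.80 in HFSC, and Adamts15 had -0.68 in DP and 3.53 in HFSC. The last 4 HFSC values rest on at most 2 reads in Sham.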

How the results depend on the processing

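Counts of called members moved with the settings as follows. In GR KO against Control in DP the 8 became 16 in DESeq2, 5 with median-of-ratios scaling, 19 without the filter on low counts, 1 with only the groups compared, 3 from protein-coding transcripts only, and 0 to 7 with single libraries left out. In ADX against Sham in DP the 0 became 6 in DESeq2, 9 without the filter and 1 with the replicate block, and stayed 0 with single libraries left out. The difference of the effects in DP, called in 2, became 15 in DESeq2, 17 without the filter, 7 with the replicate block, 0 from protein-coding transcripts only, and 0 to 7 with single libraries left out. In HFSC, ADX against Sham moved from 1 to 3 in DESeq2, 4 without the filter, 0 with the replicate block (the Timp3 call was lost) and 0 to 2 with single libraries left out. ADX+CORT against ADX moved from 0 to 4 in DESeq2, 5 without the filter, 2 with the same experiment only and 0 to 4 with single libraries left out. ADX+CORT against Sham stayed at 0 throughout. GR KO against Control moved from 0 to 3 in DESeq2, 1 with median-of-ratios scaling, 4 without the filter and 1 with only the groups compared. The HFSC difference moved from 0 to 2 without the filter. The cause of these moves was not tested.

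Signs turned in 6 of 513 alternative values of named members: Adamts10 in GR KO against Control in DP (-7.91 from protein-coding transcripts only, where GR KO had 0 reads, so that this value is no bound), Timp3 in ADX against Sham in DP (0.079 from protein-coding transcripts only, -1.08 to 0.41 with single libraries left out, positive without the second ADX library), Timp1 there (-0.78 to 0.17, positive without the first Sham library), and Timp2 in the HFSC difference (-0.35 to 0.23, positive without the second Sham or the second ADX library). None of these 6 values was called. Replicate numbers were shared between groups, but with 2 libraries a group they were not taken as a pairing; deviations correlated at -0.148 between ADX and Sham in DP, 0.22 between GR KO and Control in DP and -0.0196 to 0.0411 in HFSC. With the replicate block 7 members were called in GR KO against Control in DP, and with crossed numbers, chosen after seeing the data, 0 in ADX against Sham in DP. With 2 libraries a group, 4 (DP) and 5 (HFSC) residual degrees of freedom limit what could be detected, and members with few reads carry the widest errors.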
